A study of Mus musculus with 45 samples.

Results

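The genes described here are those of the extracellular side of Wnt signalling. They comprise the Wnt ligands, their Frizzled receptors and Lrp5 and Lrp6 co-receptors, the R-spondins and their Lgr receptors, the secreted inhibitors of the Sfrp, Dkk and Wif1 families, and a few target and feedback genes. Members were taken by symbol: every gene named Wnt, Fzd, Sfrp or Dkk with a number, plus Lrp5, Lrp6, Axin2, Lef1, Lgr5, Lgr6, Rspo1, Rspo3, Wif1, Nkd1 and Notum. This rule found 48 of the 18820 genes on the array. Tcf7, which the rule also lists, was not analysed here. A gene was kept for testing where its log2 level lay above the median of the whole table, 5.67, in at least 8 tumours, and 33 of the 48 members and 12123 of all genes were kept. By role these were 9 of 19 Wnt genes, 10 of 10 Frizzled genes, 2 of 2 co-receptors, 1 of 2 R-spondins, 2 of 2 Lgr receptors, 3 of 4 Sfrp genes, 2 of 4 Dkk genes, Wif1, 2 of the 3 feedback genes Axin2, Nkd1 and Notum, and Lef1.

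Expression was measured on single-colour Affymetrix arrays in 45 mouse mammary tumours. Every tumour grew from a mammary fragment of a Trp53-null BALB/c donor that had not been irradiated. The hosts were wild-type BALB/c females that had lost their own mammary epithelium at 3 weeks of age and received a fragment in the inguinal fat pad at 10 weeks. Hosts received silicon ions or a sham exposure 3 days before the transplant, and tumours were removed at 1 cm3 within 600 days of follow-up. The sham hosts gave 18 tumours, and hosts given 10, 30 and 80 cGy of silicon ions gave 9, 10 and 8. Epithelial tumour cells in this model lack Trp53 in every group, while the fat, vessels and other tissue of the host are wild type. The design asks whether exposure of the host alone goes with a different tumour. Trp53 itself was not analysed here.

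Wnt proteins are lipid-modified secreted signals that bind a Frizzled receptor together with Lrp5 or Lrp6. In the best known branch this protects beta-catenin from degradation, and beta-catenin then acts in the nucleus with TCF and LEF factors. Axin2, Nkd1 and Notum are switched on by that branch in many tissues and dampen it. R-spondins bind Lgr receptors and slow the removal of Frizzled proteins from the cell surface. In the mouse mammary gland Wnt1, Wnt3 and Wnt10b are known as insertion sites of the mouse mammary tumour virus, and Wnt4 and Rspo1 act between luminal and basal cells downstream of ovarian hormones.

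All values are RMA log2 levels of 1 probe set per gene, so that a step of 1 is a doubling, and levels of different genes are not set against each other. The array medians lay between 5.48 and 5.80. Epithelial genes were present in most tumours. Epcam and Cdh1, 2 defining epithelial genes, were above the table median in 44 of 45 tumours, and the keratin gene Krt18 in 45. Some others were above it in fewer tumours, such as the junction genes Ocln (33) and Crb3 (32) and the luminal gene Foxa1 (30). Each tumour was also scored on lists of cell type markers, a score being the mean over the list of log2 level minus the gene's mean over all tumours. The scores on the epithelial junction list (12 of 12 genes measured) were cut into the 2 sets with the least spread within them. Below the cut 9 tumours scored -3.31 to -1.29, and the other 36 scored -0.76 to 1.56. The gap at the cut, 0.53, was smaller than the largest gap between neighbouring scores, 0.75. Tumours below and above the cut are called junction-low and junction-high. The junction-low set held 5 sham tumours and 1, 1 and 2 at 10, 30 and 80 cGy. The tumours 10 cGy replicate 1 and sham replicate 16 were the most alike pair (r = 0.978 over the genes kept, against a median of 0.857) and had the highest endothelium scores, 3.09 and 3.03. Another 7 tumours, 4 sham, 1 at 30 cGy and 2 at 80 cGy, scored above 2 for adipocytes or skeletal muscle. A change in a bulk tumour can reflect fewer cells of a type or less RNA per cell, and the arrays cannot tell these apart. The labels do not say that tumours came from separate hosts, so p-values measure the spread between these tumours only.

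The Wnt pathway genes that were kept varied more between tumours than most genes did. Their median SD over the 45 tumours was 0.93, against 0.43 over all genes kept, and 32 of the 33 lay above that all-gene median. A range of more than 4 log2 units was seen in 14 of the 33 (42.4%) and in 13.8% of all genes kept. The heat map of the 33 genes shows that this spread lay within every host group.

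**Figure D1:**
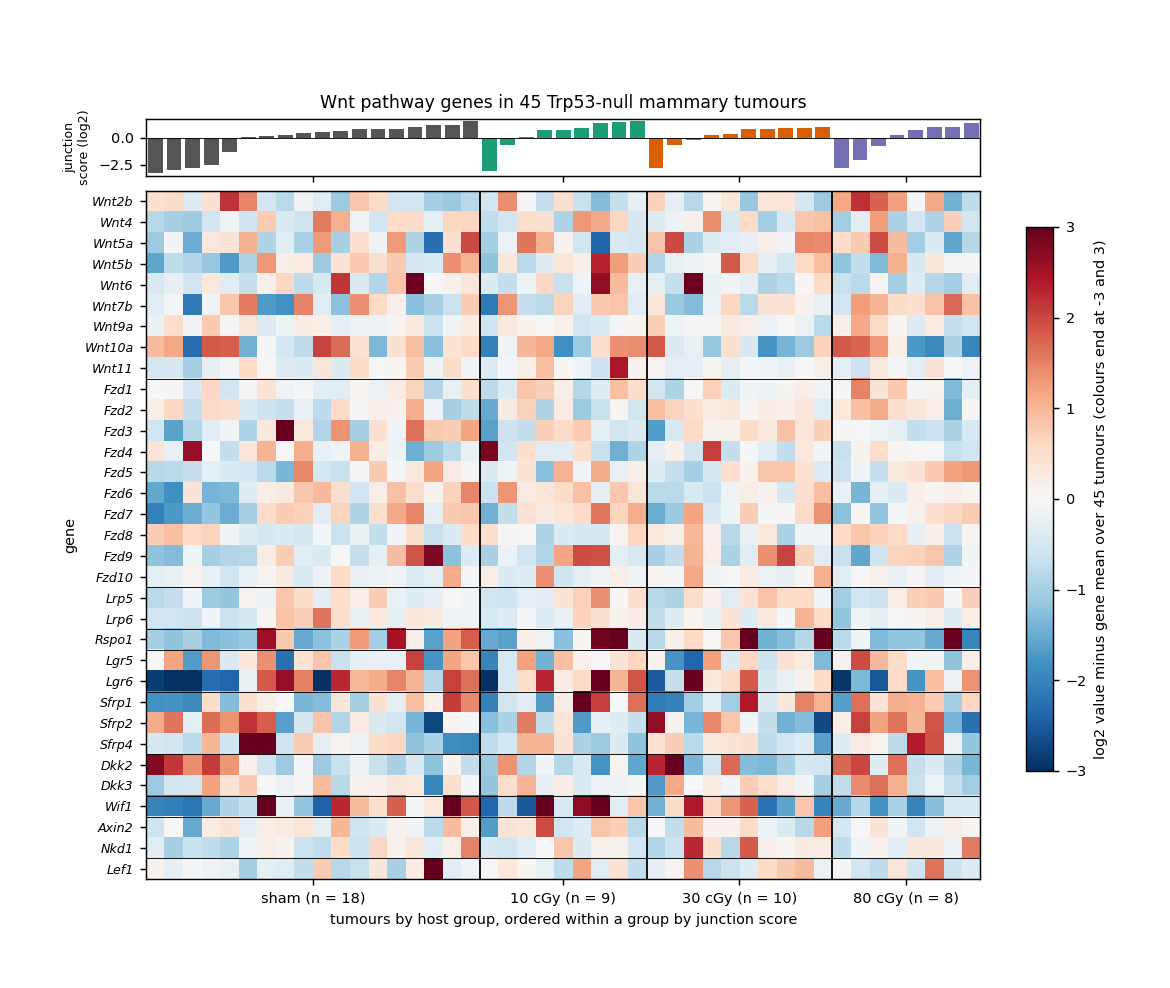
Log2 level of the 33 kept Wnt pathway genes in 45 tumours, coloured by the difference from each gene's mean, with colours ending at -3 and 3. Columns are tumours in the 4 host groups, ordered within a group by the epithelial junction score shown as bars, and horizontal lines separate the roles. Wif1, Rspo1 and Lgr6 show the widest ranges, and Lgr6 and Fzd7 are mostly low in the tumours at the left end of each group.

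Host exposure was tested first, since it is the factor the groups were built on. Limma called 0 of the 33 genes at an adjusted p under 0.05 for Si hosts against sham, and 0% of the 12123 genes. At an unadjusted p under 0.05 there were also 0 members, while 706 genes, 5.82% of all, passed that mark. The estimate was above 0 in 22 members and below 0 in 11, with a median of 0.07. Over all genes the median was 0.01 and 53.2% of estimates were above 0. The largest estimates were 0.40 for Sfrp1 and -0.42 for Wnt10a, with standard errors of 0.41 and 0.40.

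Single doses gave the same count of calls. At 10 cGy 0 members (0% of all genes) were called and 0 passed the unadjusted mark, which 3.65% of all genes did. The estimate was above 0 in 18 members, and in 51.8% of all genes. At 30 cGy 0 members were called, against 0% of all genes, and 0 passed the unadjusted mark, which 4.45% of genes did. There 20 members and 49.2% of genes had an estimate above 0. At 80 cGy 0 members and 0% of genes were called, and 1 member, Wnt7b, had an unadjusted p under 0.05, which 6.97% of genes also had. Estimates above 0 were found in 17 members and 56.6% of genes. The F test over the 4 groups called 0 members and 0% of genes, with 0 members and 4.13% of genes at the unadjusted mark. The slope on dose called 0 members and 0% of genes, and Wnt7b and Wnt6 were the 2 members past the unadjusted mark, which 7.43% of genes passed. It was above 0 in 17 members and 56.3% of genes. The F test among the 3 doses called 0 members and 0% of genes, and Fzd2 was the 1 member past the unadjusted mark, where 3.98% of genes lay. The doses share the sham tumours as their control.

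Wnt7b (probe set 10431210) encodes a ligand made by mammary epithelium. Its level ran from 4.85 to 8.50 (median 6.75) in sham tumours, 4.85 to 8.28 (median 6.65) at 10 cGy, 5.66 to 7.62 (median 6.95) at 30 cGy and 6.40 to 8.68 (median 7.84) at 80 cGy. The ranges overlapped, though the lowest 80 cGy tumour stood above the lowest sham tumour and 7 of 8 tumours at 80 cGy lay above the sham mean. The difference between 80 cGy and sham was 0.99 ± 0.40 (p = 0.0187, limma adjusted p = 0.673), and it remained between 0.72 and 1.18 over the alternatives. Wnt6 (probe set 10347491), a ligand gene next to Wnt10a, ran from 4.56 to 8.40 (median 5.32) in sham tumours, 4.74 to 8.10 (median 5.31) at 10 cGy, 4.54 to 8.38 (median 5.21) at 30 cGy and 4.43 to 5.52 (median 4.71) at 80 cGy. The tumours with high Wnt6 were in the other 3 groups, and 0 of 8 at 80 cGy exceeded the sham mean. Its slope was -0.00985 log2 per cGy (limma adjusted p = 0.66), and that of Wnt7b was 0.0117 (adjusted p = 0.604). The basal epithelium score (9 of 9 markers measured) moved along with Wnt6, as described further on, and was -1.98 to 0.65, median -0.99, at 80 cGy and -2.38 to 2.80, median -0.35, in sham tumours. Its part in the Wnt6 slope was not tested.

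Fzd2, a receptor of both Wnt branches, ran from 6.70 to 8.78 (median 7.62) in sham tumours, 6.17 to 8.39 (median 7.15) at 10 cGy, 7.35 to 8.60 (median 7.97) at 30 cGy and 6.23 to 8.80 (median 8.01) at 80 cGy. Most tumours at 30 and 80 cGy lay above the sham mean (9 of 10 and 7 of 8), against 4 of 9 at 10 cGy, with overlapping ranges. The F test among doses had p = 0.0381 and a limma adjusted p of 0.999. Wif1 had the largest estimate of the 33 genes at any dose, -1.29 ± 0.81 at 80 cGy (adjusted p = 0.79), and its 80 cGy tumours all lay below the sham mean, within the range of the sham tumours. The plot of differences by dose gives all 33 estimates with their standard errors.

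**Figure D2:**
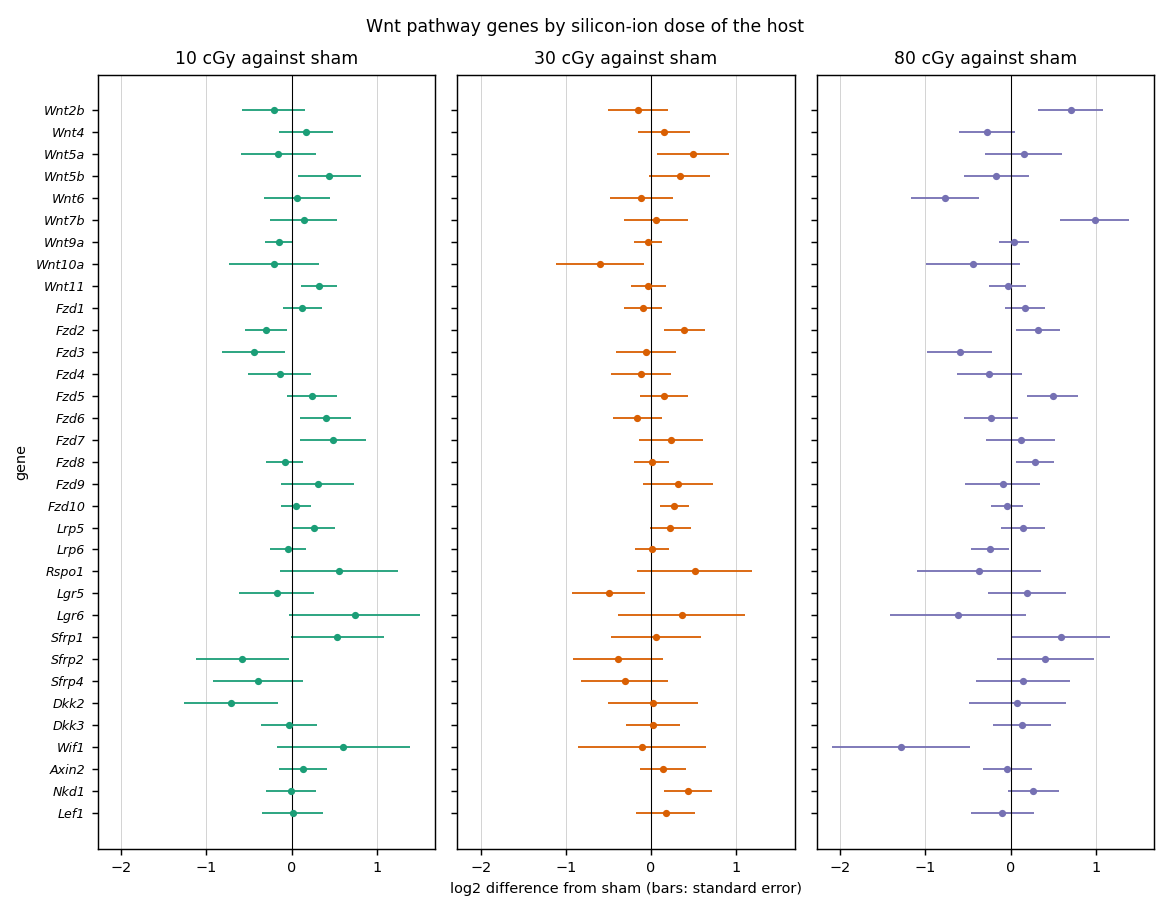
Log2 difference from sham for the 33 kept genes at 10, 30 and 80 cGy, with points for the limma estimate and bars for its standard error. Wnt7b at 80 cGy (0.99) and Wif1 at 80 cGy (-1.29) lie farthest from 0, and 0 of the genes passed at any dose.

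Among 54 kept genes from a list of further pathway components, 0 were called in any of these comparisons. The genes with the smallest p for Si hosts were Bcl9, a beta-catenin co-activator (0.38 ± 0.16), Tcf7l2, a partner of beta-catenin on DNA (0.32 ± 0.14), and Tle2, a Groucho co-repressor (0.39 ± 0.17). At 10 cGy they were Tnks, which encodes tankyrase, an enzyme that marks Axin for removal (-0.42 ± 0.16), and the cyclin gene Ccnd1 (0.37 ± 0.17). Amer1, which encodes a membrane partner of APC, had 0.28 ± 0.10 at 30 cGy. At 80 cGy Tle2 had 0.63 ± 0.24 and the secreted inhibitor gene Draxin 0.48 ± 0.19. In the F test among the 3 doses 4 of the 54 (7.41%) passed the unadjusted mark, Cd44 (p = 0.0376) among them, against 3.98% of all genes. For the F test over the 4 groups and the slope on dose it was 2 each (3.7%), against 4.13% and 7.43% of all genes. The unadjusted mark was passed by 5, 2, 3 and 2 of the 54 for Si hosts and for 10, 30 and 80 cGy, that is by 9.26%, 3.7%, 5.56% and 3.7%, against 5.82%, 3.65%, 4.45% and 6.97% of all genes.

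Ligand genes ranged from above the table median in 43 of 45 tumours (Wnt5a) to below it in all, with Wnt11 (10 tumours), Wnt6 (11), Wnt2b and Wnt4 (25 each) and Wnt9a (29) in between. Of the 15 members that were not kept, 7 never exceeded the table median in any tumour: Wnt1, Wnt3, Wnt3a, Wnt8b, Wnt9b, Dkk1 and Dkk4. Wnt1 and Wnt3, the virus insertion sites, stayed between 3.41 to 4.41 and 3.09 to 4.25, and the ranges were 3.62 to 4.60 for Wnt3a, 3.48 to 4.38 for Wnt8b and 4.22 to 5.00 for Wnt9b. The other 8 were above the median in 2 to 7 tumours: Wnt2, Wnt7a, Wnt8a, Wnt10b, Wnt16, Sfrp5, Rspo3 and Notum.

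Some of these ligands were high in 1 or 2 tumours only. Wnt8a (probe set 10454701), an early embryonic patterning ligand, stood at 10.61 in 10 cGy replicate 2 and 10.34 in 30 cGy replicate 9, while the next tumour reached 5.07 and the median was 4.47. These levels were 70.7 and 58.6 times the median. Both tumours were junction-high, and both lay near the top for Axin2, at 7.26 (the seventh highest of 45) and 7.77 (the second highest). The tumour 10 cGy replicate 2 also held the highest Rspo1 (12.11) and the highest Wnt11 (7.94) of all 45. Wnt11 is best known for cell movements outside the beta-catenin branch, and its next highest value was 6.39.

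Wnt7a (probe set 10546339), which patterns the female reproductive tract and the limb, was at 8.86 in 80 cGy replicate 1 and 7.15 in sham replicate 14, and no other tumour exceeded 4.89. Both of these tumours had skeletal muscle scores among the 5 highest (3.58 and 4.30, with 9 of 9 muscle genes measured). The rest of those 5 had low Wnt7a. It was 4.27 in 30 cGy replicate 1 (muscle score 6.09), 3.83 in sham replicate 15 (5.32) and 3.63 in 80 cGy replicate 6 (3.62). The part of muscle in the Wnt7a levels was not tested. Wnt10b, a virus insertion site that acts in early mammary development, was at 6.72 in sham replicate 4, 6.29 in sham replicate 11 and at most 5.61 elsewhere.

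Wnt2 was highest in sham replicate 7 (7.83) and sham replicate 9 (7.04), with a median of 4.55. The same 2 tumours held the highest levels of 3 further members: the secreted Frizzled-related genes Sfrp4 (11.38 and 11.11) and Sfrp5 (6.21 and 6.37), and the ligand gene Wnt16 (6.12 and 5.98). For Sfrp4 the next tumour was 9.30. Sham replicate 7 had the third highest fibroblast score (1.45), and sham replicate 9 the fourth highest adipocyte score (2.42). The tumours with higher scores had lower Wnt2. It was 4.39 and 4.18 in 80 cGy replicates 8 and 1, which led for fibroblasts. For adipocytes it was 5.65 in 30 cGy replicate 1, 4.6 in sham replicate 15 and 4.06 in sham replicate 14. Sham replicates 7 and 9 were picked out by their values, which are given as a description without a test. The plot of members above the median in fewer than 8 tumours shows the isolated points.

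**Figure D3:**
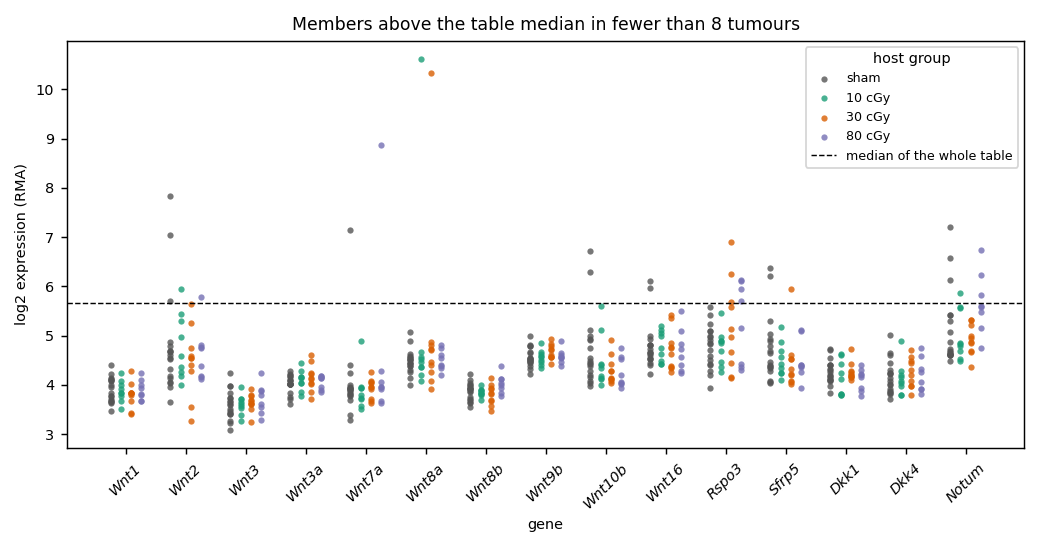
Log2 level in each of 45 tumours of the 15 members that lay above the table median (dashed line, 5.67) in fewer than 8 tumours, coloured by host group. Wnt8a has 2 points above 10 and Wnt7a 2 points above 7, and the rest of their tumours lie below the line.

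The ligands above the table median in the largest numbers of tumours were Wnt5a, Wnt7b, Wnt10a and Wnt5b, with 43, 40, 38 and 37 of 45. Wnt10a (probe set 10347497), a ligand of skin and tooth development, ran from 4.92 to 9.24 (median 7.65) in sham tumours, 5.17 to 8.60 (median 7.71) at 10 cGy, 5.44 to 9.05 (median 6.76) at 30 cGy and 5.25 to 9.06 (median 6.84) at 80 cGy. The ranges of the 4 groups overlapped, and its lowest levels were in sham replicate 16 (4.92) and 10 cGy replicate 1 (5.17), the alike pair. Wnt5a, the main ligand of the branch that does not use beta-catenin, ran from 5.61 to 9.86 (median 7.74) in sham tumours, 5.46 to 9.46 (median 7.41) at 10 cGy, 6.91 to 9.84 (median 7.89) at 30 cGy and 6.31 to 9.82 (median 7.95) at 80 cGy, and every dose group spanned the sham median. Wnt4 (probe set 10509267), induced by progesterone in mammary epithelium, ran from 4.98 to 7.61 (median 5.85) in sham tumours, 5.12 to 7.34 (median 6.50) at 10 cGy, 5.02 to 7.45 (median 6.04) at 30 cGy and 5.02 to 7.31 (median 5.48) at 80 cGy. The ranges of the rest were 4.60 to 8.21 for Wnt2b, 4.89 to 8.88 for Wnt5b, 4.99 to 6.94 for Wnt9a and 4.48 to 7.94 for Wnt11. Wnt9a, a ligand of joint formation, had the smallest SD of the 33 genes (0.40), and it alone lay below the all-gene median SD.

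Which of these genes vary together with Axin2, the most general target of the beta-catenin branch, was asked by fitting every gene on the Axin2 level with the 4 host groups as covariates. Axin2 (probe set 10382228) ran from 5.02 to 7.52 (median 6.61) in sham tumours, 4.86 to 8.49 (median 6.87) at 10 cGy, 5.70 to 7.77 (median 6.61) at 30 cGy and 5.96 to 6.92 (median 6.50) at 80 cGy. It was lowest in 10 cGy replicate 1 (4.86) and sham replicate 16 (5.02) and highest in 10 cGy replicate 5 (8.49). Limma gave a slope that passed for 6 of the other 32 kept members, or 18.8%, against 4.6% of all genes. All 6 were positive (1.83% of all genes) and 0 negative (2.77%). These were Fzd10, Lgr6, Wnt6, Wnt10a, Wnt4 and Wif1.

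Fzd10 (probe set 10525955), a receptor gene above the table median in 10 tumours, rose by 0.35 ± 0.08 per log2 unit of Axin2 (adjusted p = 0.0128). Its levels ran from 4.99 to 6.69 (median 5.38) in sham tumours, 4.98 to 6.94 (median 5.47) at 10 cGy, 5.33 to 6.72 (median 5.61) at 30 cGy and 5.23 to 5.71 (median 5.51) at 80 cGy. The 4 highest tumours, at 6.65 to 6.94, came from 3 host groups (10 cGy replicate 5, 30 cGy replicates 9 and 10, sham replicate 8) and stood apart from most others. Within the 36 junction-high tumours the Fzd10 slope was 0.55 ± 0.09 (adjusted p = 0.0013). Fzd10 was the 1 member called there (3.12%), where 0.198% of all genes were.

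The other 5 slopes did not pass within the junction-high tumours. Over all tumours they were 1.47 ± 0.36 for Lgr6 (adjusted p = 0.0146), 0.66 ± 0.19 for Wnt6 (0.0332) and 0.88 ± 0.26 for Wnt10a (0.0402). In the junction-high tumours they were 1.01 ± 0.33, 0.78 ± 0.25 and 0.77 ± 0.26, with adjusted p of 0.192, 0.168 and 0.212. Wnt4 and Wif1 rose by 0.52 ± 0.16 and 1.26 ± 0.38 (adjusted p = 0.0451 and 0.0465), and by 0.46 ± 0.20 and 1.07 ± 0.47 in the junction-high tumours (0.344 and 0.368). Without the 2 tumours farthest from the Axin2 median, 0 members passed. Left out 1 at a time, 10 cGy replicate 1 or sham replicate 16 left 1 call, sham replicate 4 left 2, and 30 cGy replicate 8, 10 cGy replicates 3 and 4 and sham replicate 8 left 3 each.

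Nkd1 and Lef1, which are often switched on with Axin2, had slopes on it of 0.32 ± 0.15 (adjusted p = 0.208) and -0.28 ± 0.19 (0.432). Nkd1, a brake that binds Dishevelled, ran from 5.32 to 7.81 (median 6.10) in sham tumours, 5.75 to 7.16 (median 6.00) at 10 cGy, 5.45 to 8.58 (median 6.51) at 30 cGy and 5.56 to 7.88 (median 6.33) at 80 cGy, with its 2 highest levels in 30 cGy replicates 10 (8.58) and 5 (8.17). Notum, whose enzyme strips the lipid from Wnt proteins, was above the median in 7 tumours and ran from 4.49 to 7.21 (median 4.71) in sham tumours, 4.49 to 5.87 (median 4.82) at 10 cGy, 4.36 to 5.32 (median 4.91) at 30 cGy and 4.76 to 6.75 (median 5.60) at 80 cGy. At 80 cGy 7 of 8 tumours exceeded the sham mean of Notum, inside the sham range. With its low levels Notum was not among the genes kept for the main tests. The refit of the host comparisons without the filter on low values included it and called 0 members. Lef1, a DNA-binding partner of beta-catenin, ran from 4.58 to 9.58 (median 5.33) in sham tumours, 4.81 to 6.77 (median 5.58) at 10 cGy, 4.73 to 6.93 (median 5.52) at 30 cGy and 4.81 to 7.21 (median 5.11) at 80 cGy. Its level of 9.58 in sham replicate 2 was 2.37 log2 units above the next tumour, and that tumour also had the highest Fzd9 (8.79), while its Axin2 was 5.74.

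Of 54 further pathway genes, 5 rose with Axin2 (9.26%) and 0 fell, where 1.83% of all genes rose and 2.77% fell. Porcn, which encodes the enzyme that attaches the lipid to Wnt proteins, rose by 0.83 ± 0.17 (adjusted p = 0.00746). Sostdc1, a secreted inhibitor gene of Wnt and BMP signals, rose by 1.21 ± 0.29 (0.0137). Rnf43 and Znrf3, whose ubiquitin ligases remove Frizzled receptors and are opposed by R-spondins, rose by 0.89 ± 0.26 and 0.39 ± 0.11 (0.0357 and 0.0424). Csnk1a1, which encodes a casein kinase of the beta-catenin destruction complex, rose by 0.17 ± 0.05 (0.0346). None of the 5 passed within the junction-high tumours, where Porcn had 0.79 ± 0.20 (adjusted p = 0.0846). Ctnnb1, the beta-catenin gene, ran from 11.23 to 12.95 (median 11.72) in sham tumours, 11.62 to 13.52 (median 11.78) at 10 cGy, 11.08 to 12.17 (median 11.82) at 30 cGy and 11.10 to 12.01 (median 11.78) at 80 cGy and had a slope of 0.17 ± 0.09 (0.296). The slopes were -0.04 ± 0.13 for Wls, which carries Wnt proteins to the surface, and 0.48 ± 0.24 for Lgr4, another R-spondin receptor (0.886 and 0.232).

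Promoters of Axin2 and of the members called with it first and found in the sequence table are printed to show what they share, namely many CG pairs. They are RefSeq sequences (GRCm38.p6), each 250 bases before to 50 after a gene start, 5′ to 3′ on the gene's strand, with CG pairs in capitals. The Wnt10a promoter was not in the table.
Axin2, chr11:108920099-108920398, plus strand: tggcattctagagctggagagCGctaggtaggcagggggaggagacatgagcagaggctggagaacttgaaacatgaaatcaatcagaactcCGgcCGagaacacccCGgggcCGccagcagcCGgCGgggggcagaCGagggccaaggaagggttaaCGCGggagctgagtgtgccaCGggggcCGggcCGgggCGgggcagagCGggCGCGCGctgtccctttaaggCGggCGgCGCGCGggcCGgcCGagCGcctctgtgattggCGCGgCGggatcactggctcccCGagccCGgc
Fzd10, chr5:128600856-128601155, plus strand: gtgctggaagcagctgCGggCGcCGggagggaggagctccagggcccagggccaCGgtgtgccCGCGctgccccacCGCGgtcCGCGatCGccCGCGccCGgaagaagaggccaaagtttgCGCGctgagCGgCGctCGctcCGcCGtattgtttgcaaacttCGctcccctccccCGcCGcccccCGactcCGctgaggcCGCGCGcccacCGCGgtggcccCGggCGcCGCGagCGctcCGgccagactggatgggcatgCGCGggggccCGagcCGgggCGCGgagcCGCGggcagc
Lgr6, chr1:135105227-135105526, minus strand: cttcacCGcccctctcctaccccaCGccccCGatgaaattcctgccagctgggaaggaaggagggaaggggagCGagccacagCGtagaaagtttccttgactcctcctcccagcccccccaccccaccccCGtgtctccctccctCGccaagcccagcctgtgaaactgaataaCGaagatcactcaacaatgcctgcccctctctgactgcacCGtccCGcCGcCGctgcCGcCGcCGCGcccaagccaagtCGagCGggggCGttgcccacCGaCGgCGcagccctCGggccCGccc
Wnt6, chr1:74771642-74771941, plus strand: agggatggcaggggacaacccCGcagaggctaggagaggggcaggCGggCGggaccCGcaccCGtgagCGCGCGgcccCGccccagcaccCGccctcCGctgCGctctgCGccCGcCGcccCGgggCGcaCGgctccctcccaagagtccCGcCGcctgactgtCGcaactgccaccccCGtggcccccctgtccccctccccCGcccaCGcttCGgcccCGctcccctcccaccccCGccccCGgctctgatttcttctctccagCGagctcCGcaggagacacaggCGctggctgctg

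These 4 promoters hold 31, 45, 24 and 31 CG pairs, against a median of 7 over 32851 promoters of the same length. The table held 37 promoters of 31 members, with a median of 24, and 32 of the 37 (86.5%) lay above the all-promoter median, as did 48.7% of all. The core letters that TCF and LEF factors read, CTTTGA, were searched on both strands. They occur in 5 of the 37 (13.5%) and in 16.0% of all promoters, and in none of the 4 printed. Of 4 Lef1 starts, 1 holds them at 2 places, shown in capitals, as TCAAAG on the printed strand.
Lef1, chr3:131156044-131156343, plus strand: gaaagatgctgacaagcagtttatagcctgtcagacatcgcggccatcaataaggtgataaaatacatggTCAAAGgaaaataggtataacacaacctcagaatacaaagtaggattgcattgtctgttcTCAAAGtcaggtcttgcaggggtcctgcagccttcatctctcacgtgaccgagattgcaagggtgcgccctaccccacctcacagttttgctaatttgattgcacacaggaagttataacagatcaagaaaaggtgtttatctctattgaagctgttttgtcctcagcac

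Frizzled receptors were all kept, and 4 of the 8 members above the table median in every tumour were Fzd1, Fzd2, Fzd6 and Fzd7. Fzd7 (probe set 10346607), a receptor of basal mammary cells, ran from 7.57 to 11.05 (median 9.67) in sham tumours, 8.16 to 11.17 (median 10.01) at 10 cGy, 8.11 to 10.95 (median 9.58) at 30 cGy and 8.35 to 10.34 (median 9.68) at 80 cGy. Fzd4 (probe set 10554808), also the receptor of Norrin in retinal vessels, ran from 5.56 to 9.66 (median 6.97) in sham tumours, 5.59 to 9.86 (median 6.70) at 10 cGy, 6.30 to 9.10 (median 6.84) at 30 cGy and 6.36 to 7.56 (median 7.03) at 80 cGy. Its 3 highest tumours were 10 cGy replicate 1 (9.86), sham replicate 16 (9.66) and 30 cGy replicate 1 (9.10) and the next stood at 8.12. The ranges of the remaining receptors were 6.79 to 9.60 for Fzd1, 4.66 to 9.65 for Fzd3, 5.41 to 8.23 for Fzd5, 6.79 to 10.08 for Fzd6, 5.19 to 7.11 for Fzd8 and 4.43 to 8.79 for Fzd9. The co-receptor genes Lrp5 and Lrp6 ran from 8.21 to 10.73 and 8.48 to 11.26, and both were above the table median in all 45 tumours.

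Rspo1 and Lgr6 had, with Wif1, the 3 widest ranges of the 33 kept genes. Rspo1 (probe set 10508012), made by luminal cells in the mouse gland, ran from 5.09 to 9.27 (median 5.72) in sham tumours, 5.11 to 12.11 (median 6.57) at 10 cGy, 5.29 to 9.93 (median 6.78) at 30 cGy and 4.75 to 10.48 (median 5.55) at 80 cGy, so that its widest gap between median and maximum was in 10 cGy tumours. Lgr6 (probe set 10357965), a receptor and stem cell marker of skin, ran from 4.09 to 10.22 (median 8.59) in sham tumours, 3.81 to 10.92 (median 8.20) at 10 cGy, 5.09 to 10.58 (median 7.80) at 30 cGy and 4.68 to 8.94 (median 6.84) at 80 cGy, with its lowest levels again in 10 cGy replicate 1 and sham replicate 16. Lgr5, the receptor that marks intestinal stem cells, ran from 4.49 to 8.79 (median 6.90) in sham tumours, 4.74 to 7.95 (median 6.86) at 10 cGy, 4.34 to 7.96 (median 6.58) at 30 cGy and 5.52 to 8.70 (median 6.89) at 80 cGy. None of these groups separated, and the differences for Si hosts against sham were 0.23 ± 0.52, 0.16 ± 0.57 and -0.16 ± 0.33. Rspo3, not kept, ran from 3.94 to 6.89.

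Secreted inhibitors showed the same overlap between hosts. Wif1 (probe set 10366653), whose protein binds Wnts directly, had the largest SD of the 33 (1.99) and ran from 3.80 to 10.84 (median 6.11) in sham tumours, 3.73 to 11.24 (median 5.90) at 10 cGy, 4.02 to 8.64 (median 6.83) at 30 cGy and 4.27 to 5.82 (median 5.12) at 80 cGy. Sfrp1 ran from 7.20 to 11.24 (median 9.22) in sham tumours, 7.10 to 12.59 (median 9.12) at 10 cGy, 7.03 to 11.54 (median 8.74) at 30 cGy and 7.47 to 10.79 (median 9.83) at 80 cGy, and Sfrp2 from 6.74 to 11.66 (median 9.50) in sham tumours, 7.79 to 11.02 (median 8.80) at 10 cGy, 6.78 to 12.15 (median 9.08) at 30 cGy and 7.24 to 11.53 (median 10.58) at 80 cGy. Both encode Wnt-binding proteins shaped like a Frizzled head, and both were above the median in all 45 tumours. Sfrp4 ran from 4.98 to 11.38 (median 6.53) in sham tumours, 5.72 to 7.94 (median 6.40) at 10 cGy, 5.29 to 7.65 (median 6.87) at 30 cGy and 5.76 to 9.30 (median 6.87) at 80 cGy, the sham maximum being the tumours named with Wnt2. Dkk2, which binds the co-receptors, ran from 5.52 to 9.49 (median 6.43) in sham tumours, 4.97 to 8.07 (median 5.88) at 10 cGy, 5.35 to 10.82 (median 6.18) at 30 cGy and 5.37 to 8.74 (median 6.34) at 80 cGy, and its highest tumours were 30 cGy replicate 2 and the junction-low sham replicate 10. Dkk3, a divergent family member, ran from 5.49 to 9.10, while Dkk1 and Dkk4 stayed within 3.78 to 4.73 and 3.71 to 5.02.

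Which tissue compartment each gene moved with was described by fitting all genes on 8 marker scores in the same way. A luminal epithelium list was also scored (8 of 8 genes measured), but the genes were not fitted on it. Slopes on the luminal score are therefore not known. With the epithelial junction score, 21 of 33 members moved, or 63.6% against 36.1% of all genes. Of these 15 rose (16.4% of all genes) and 6 fell (19.7%). Receptors led the rise: Fzd7 by 0.52 ± 0.06 per unit of score (adjusted p = 2.91e-09), Lgr6 by 0.98 ± 0.13 (5.76e-08), Lrp5 by 0.28 ± 0.05 (1.09e-05) and Fzd6 by 0.33 ± 0.06 (1.54e-05). Dkk2 had a slope of -0.63 ± 0.10 (5.47e-06), Fzd8 of -0.20 ± 0.05 (0.000537), Wnt2b of -0.28 ± 0.08 (0.00726) and Sfrp2 of -0.39 ± 0.13 (0.0158).

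Within the 36 junction-high tumours 7 members passed, or 21.2%, which is near the 19% of all genes. Fzd7 (0.72 ± 0.17, adjusted p = 0.00317), Lrp5 (0.40 ± 0.13, 0.0329), Wnt2b (-0.76 ± 0.20, 0.00952) and Dkk2 (-0.94 ± 0.28, 0.016) were among them. Lgr6 (0.69 ± 0.38, 0.195), Fzd6 (0.22 ± 0.14, 0.265), Fzd8 (-0.13 ± 0.14, 0.557) and Sfrp2 (-0.88 ± 0.34, 0.0634) did not pass there.

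The basal epithelium score moved 16 members (48.5%, all genes 22.8%), of which 14 rose (9.82% of all genes) and 2 fell (13%). Wnt4 rose by 0.40 ± 0.05 per unit (adjusted p = 2.46e-07) and by 0.41 ± 0.07 in the junction-high tumours (0.000206). Rspo1, its partner between luminal and basal cells, rose by 0.74 ± 0.13 (0.000105) and by 0.85 ± 0.18 in that set (0.00281). Fzd7 rose by 0.44 ± 0.07 (1.96e-05) and Lgr6 by 0.80 ± 0.15 (0.000156), with 0.27 ± 0.08 (0.0291) and 0.36 ± 0.16 (0.172) in the junction-high tumours. Axin2 itself rose by 0.28 ± 0.06 (0.000461) and Wnt6 by 0.37 ± 0.08 (0.000698). The slopes below 0 were those of Wnt2b (-0.34 ± 0.08, 0.00127) and Dkk2 (-0.42 ± 0.12, 0.00936), of which Wnt2b also passed in the junction-high set (-0.38 ± 0.09, 0.00442) and Dkk2 did not (-0.21 ± 0.14, 0.374). In that set 8 members passed (24.2%), against 8% of all genes.

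Squamous markers moved 4 members (12.1%, all genes 5.81%), with 4 up (3.02% of all genes) and 0 down (2.79%): Fzd10 (0.16 ± 0.04, adjusted p = 0.0081), Axin2 (0.23 ± 0.06, 0.0263), Wnt4 (0.25 ± 0.07, 0.0392) and Wnt5a (0.34 ± 0.10, 0.0397). Of the 9 squamous markers only 6 passed the filter on low values. Lor, Ivl and Krt1 were above the table median in 4, 5 and 5 tumours. The tumour with the highest squamous score (5.91), 10 cGy replicate 5, was also highest for Axin2, Fzd10 and Wif1 (11.24). Without it 1 member passed. Within the junction-high tumours 1 member (3.03%), Fzd10, passed (0.18 ± 0.04, 0.0138), against 2.86% of all genes. The count was 1 or 2 without each of 10 cGy replicate 1, sham replicates 8, 10, 16 and 17, and 80 cGy replicate 1. Over 53 alternatives the Fzd10 slope ran from 0.03 to 0.20. It did not pass in 3 of them, with a limma adjusted p of up to 0.869.

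With Pgr, the progesterone receptor gene, 2 members rose and 0 fell (6.06%, all genes 1.18%, with 0.99% up and 0.19% down), Sfrp1 by 0.58 ± 0.12 per log2 unit (adjusted p = 0.00803) and Wnt4 by 0.32 ± 0.07 (0.0152). In the junction-high tumours the slopes were 0.48 ± 0.13 (0.103) and 0.26 ± 0.09 (0.311), and 0 members passed against 0.371% of genes. Without 10 cGy replicate 6, which has the highest Sfrp1 (12.59), 1 member passed.

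The fibroblast score (10 of 11 markers measured) divided the members into 10 that rose and 10 that fell, together 60.6% against 29% of all genes (14.2% up and 14.8% down). The inhibitor genes Sfrp2 and Sfrp4 rose, Sfrp2 by 1.13 ± 0.16 (adjusted p = 1.16e-06) and Sfrp4 by 0.90 ± 0.18 (0.000286), and so did the ligand genes Wnt2b by 0.76 ± 0.11 (9.74e-07) and Wnt9a by 0.24 ± 0.06 (0.0028). Slopes below 0 were led by Fzd7 (-0.63 ± 0.14, 0.000782), Wnt6 (-0.54 ± 0.15, 0.00524), Lgr6 (-0.96 ± 0.30, 0.0143) and Nkd1 (-0.36 ± 0.11, 0.0155). Within the junction-high tumours 10 members passed (30.3%, all genes 25.1%). The slopes there were 1.03 ± 0.17 for Sfrp2 (2.29e-05), 1.06 ± 0.20 for Sfrp4 (0.000168), 0.71 ± 0.10 for Wnt2b (2.72e-06) and 0.18 ± 0.06 for Wnt9a (0.0208). They were -0.52 ± 0.10 for Fzd7 (0.000334), -0.56 ± 0.17 for Wnt6 (0.0145), -0.69 ± 0.23 for Lgr6 (0.0255) and -0.31 ± 0.12 for Nkd1, which did not pass (0.0577).

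**Figure D4:**
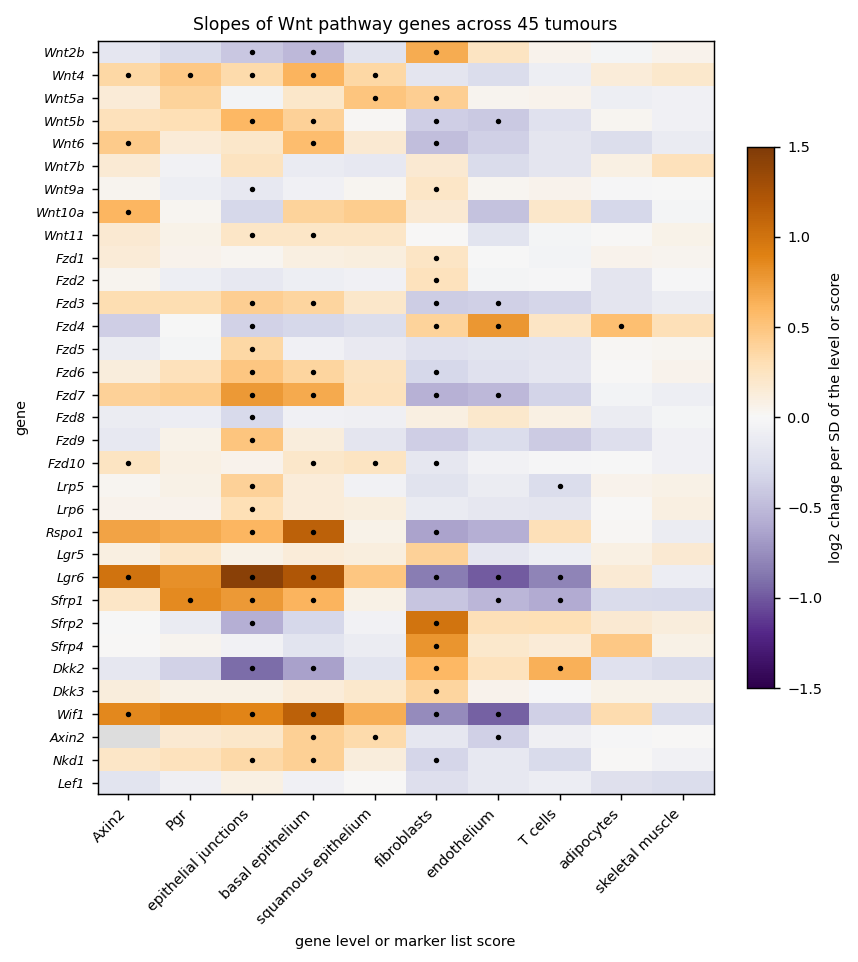
Slope of the 33 kept genes on the Axin2 and Pgr levels and 8 marker scores in 45 tumours, as log2 change per SD of the level or score, with dots where the limma adjusted p was under 0.05. Lgr6, Fzd7, Rspo1 and Wif1 take positive slopes on the epithelial columns and negative slopes on fibroblasts, Sfrp2, Sfrp4 and Wnt2b the opposite on fibroblasts, and Fzd4 has the one positive slope with a dot on endothelium. The grey cell is Axin2 against itself.

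With the endothelium score (9 of 9 markers measured) 8 members moved (24.2%, all genes 20.8%), 1 up and 7 down where 11.5% and 9.27% of all genes did. Fzd4 rose by 0.88 ± 0.08 (adjusted p = 8.35e-12), by 0.93 ± 0.15 in the junction-high tumours (3.68e-05), and by 0.87 without the alike pair (7.27e-06). Slopes below 0 were those of Fzd7 (-0.57 ± 0.14, 0.00276), Axin2 (-0.41 ± 0.10, 0.00317), Lgr6 (-1.11 ± 0.28, 0.00318) and Wif1 (-1.10 ± 0.29, 0.00446) among others. Without the alike pair they were -0.68, -0.22, -0.85 and -1.43, and Axin2 and Lgr6 no longer passed (0.392 and 0.222). In the junction-high set 5 members passed (15.2%), against 10.5% of genes, with Fzd7 at -0.62 ± 0.19 (0.0293). The count was 3 without 10 cGy replicate 1. Over 53 alternatives the Fzd7 slope ran from -0.68 to -0.10. It did not pass in 1 of them, with a limma adjusted p of 0.709.

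Fzd4 was also the 1 member that rose with the adipocyte score, by 0.41 ± 0.08 (adjusted p = 0.0014; 3.03% of members), and by 0.35 ± 0.06 in the junction-high tumours (0.000862), where 6.71% of genes passed. Over all tumours 7.35% of genes passed, 2.76% up and 4.59% down. Without the 7 tumours of high fat or muscle score, 0 members passed. The skeletal muscle score moved 0 members and 1.76% of all genes by limma at an adjusted p under 0.05 (1.6% up, 0.157% down). In the junction-high tumours it moved 1 member (3.03%), Fzd4 (0.20 ± 0.05, 0.0491), against 1.93% of genes.

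T-cell markers (8 of 9 measured) moved 4 members (12.1%, all genes 11%), 1 up and 3 down where 6.97% and 4.06% of all genes did. Of these 8 markers only 5 passed the filter on low values, and Cd3d was above the table median in 0 tumours. Dkk2 rose by 1.46 ± 0.42 (adjusted p = 0.0193), and Sfrp1 (-1.35 ± 0.43, 0.0328), Lrp5 (-0.60 ± 0.19, 0.0372) and Lgr6 (-1.82 ± 0.60, 0.0423) had slopes below 0. Within the junction-high tumours 0 members passed (0.561% of genes), the slopes being 0.76 ± 0.49, -0.77 ± 0.54, -0.24 ± 0.23 and 0.18 ± 0.62, so that the direction for Lgr6 turned.

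The scatter plots set 5 of these pairs, and Porcn against Axin2, tumour by tumour.

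**Figure D5:**
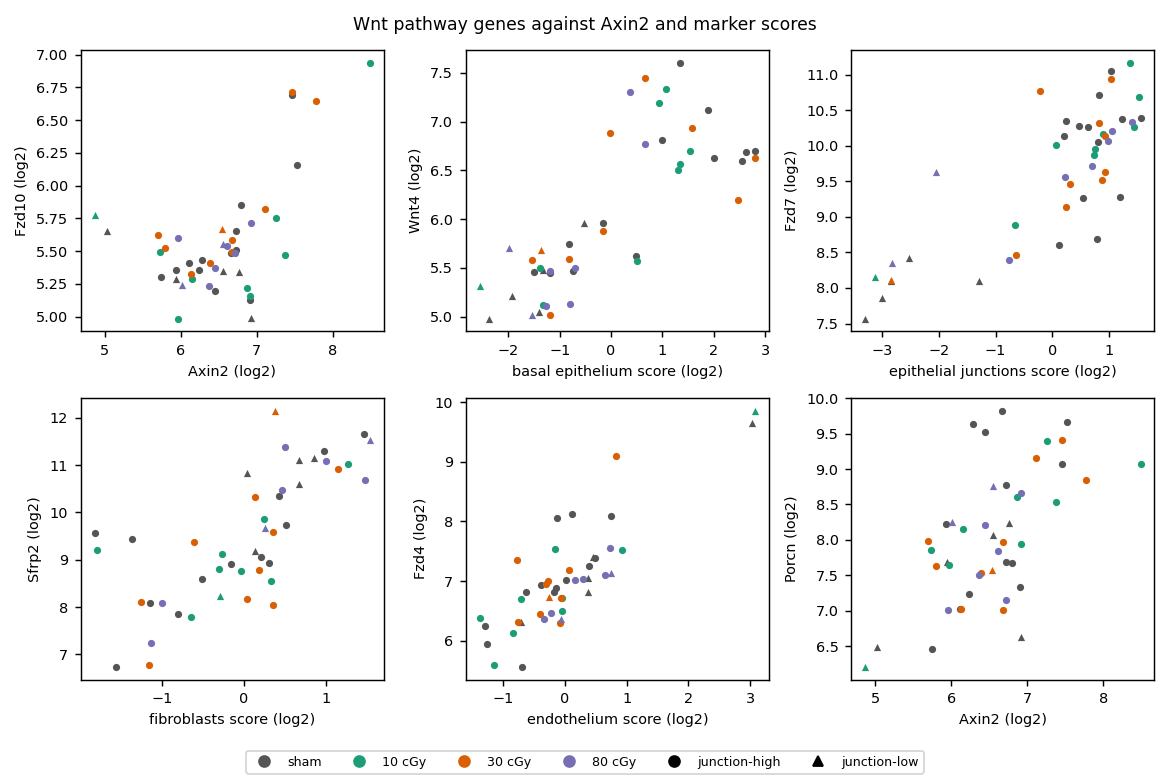
Log2 levels of Fzd10 and Porcn against the log2 level of Axin2, and of Wnt4, Fzd7, Sfrp2 and Fzd4 against the basal, junction, fibroblast and endothelium scores, in 45 tumours. Colours give the host group, circles the 36 junction-high and triangles the 9 junction-low tumours. The 3 tumours with Fzd4 above 9 include the 2 with an endothelium score above 3, and the junction-low tumours lie at the left of the Fzd7 plot, all but 1 of them below 9.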

How the data were processed

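The authors deposited log2 values, 1 per probe set and tumour, and the submitters' processing notes name RMA and oligo without versions. RMA corrects background, gives all arrays one distribution and summarises probes, so differences in total RNA between tumours are removed. Of 35556 probe sets, 21218 carried 1 gene symbol and covered 18820 genes. Where a gene had several, the probe set of highest mean stood for it (among members this touched Notum alone). Genes above the table median in 8 or more tumours were kept.

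Groups were read from the sample titles. Limma 3.58.1 in R 4.3.3 fitted the 4 group means without covariates for the host comparisons. Slopes on Axin2, Pgr and 8 marker scores were fitted with the group means as covariates. Tests were two-sided, Benjamini-Hochberg adjustment ran over all 12123 genes kept, and the threshold was an adjusted p of 0.05. Errors after ± are limma's standard errors. The number of arrays limits the precision. The code was tested on simulated data.

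Members named with values by group had an unadjusted p under 0.05 in a host comparison (at most 5 per comparison) or were among the 10 largest SDs of those kept, and Axin2, Nkd1, Notum, Lgr5 and Lef1 were always named. Slope fits named the 4 smallest p on each side among members called. Further pathway genes were named at an unadjusted p under 0.05 between hosts (at most 3 per comparison) or when called on Axin2 (at most 6), with Ctnnb1, Porcn, Wls, Lgr4, Znrf3 and Rnf43 always named. Members, lists and tests were chosen with earlier results of these data known. Promoters came from a RefSeq table matched by symbol, which held 31 of 48 members. The alternatives tried are in the closing section.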

Additional observations from a re-analysis of the deposited data

Results flagged for a closer look

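In a group of 8 to 10 tumours a single tumour can stand far from its neighbours. Of 144 members and dose groups tested by Dixon's gap criterion, 21 gave such a tumour. For normally distributed values chance gives about 1 in 20. The criterion was run on the members only. The share over all genes is not known, so the count is not read as a trait of these genes. The 18 sham tumours were too many for this criterion.

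The 3 widest gaps were those of Wnt8a in both tumours and of Wnt7a at 80 cGy. Wnt8a stood at 10.61 in 10 cGy replicate 2 and 10.34 in 30 cGy replicate 9, where the nearest tumours of the group were at 4.67 and 4.88. Wnt7a was at 8.86 in 80 cGy replicate 1, with the nearest at 4.28. A narrower gap for Wnt7a was that of 10 cGy replicate 5, at 4.89 with the nearest at 3.95. Wnt11 was at 7.94 in 10 cGy replicate 2, Wnt6 at 8.10 in 10 cGy replicate 3 and 8.38 in 30 cGy replicate 10, and Wnt2 at 5.79 in 80 cGy replicate 2.

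Among receptors, Fzd4 was high in 10 cGy replicate 1 (9.86) and 30 cGy replicate 1 (9.10), and Fzd10 in 10 cGy replicate 5 (6.94). Low values were those of Fzd2 in 80 cGy replicate 7 (6.23), Fzd3 in 30 cGy replicate 4 (4.66), Fzd6 in 80 cGy replicate 8 (7.23) and Lrp6 in 80 cGy replicate 3 (8.48). The last 3 of these tumours are junction-low.

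Rspo1 reached 10.48 in 80 cGy replicate 7, Nkd1 7.16 in 10 cGy replicate 4 and Lef1 7.21 in 80 cGy replicate 2. The inhibitor genes Sfrp5 (5.96 in 30 cGy replicate 1), Dkk1 (4.72 in 30 cGy replicate 7) and Dkk4 (4.88 in 10 cGy replicate 5) were each the highest of their group.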

How the results depend on the processing

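No host comparison called a Wnt pathway gene under any of its alternatives: in 404 refits of the 7 comparisons, 0 called a member, and the lowest adjusted p was 0.182 (slope on dose with array weights). Leaving out each tumour in turn also gave 0 to 0. The 229 refits of the host differences named for Wnt7b, Wnt6 and Fzd2 all stayed above the threshold, and those with a direction kept it. Titles share replicate numbers between groups, but same-numbered tumours did not deviate together (mean r of -0.08 over 52 pairs, with 0 of 37 tumours most like one of its own number), so the numbers do not pair tumours. With the number as a replicate block, 0 members were called in each comparison, and of all genes 6 for Si hosts, 1 for 80 cGy and 0 in the other comparisons.

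Several slope counts changed with the tumours or covariates used. With Axin2 the 6 calls became 3 without the filter on low values, 0 without the 2 farthest tumours, 2 with the junction score as covariate, 1 among junction-high tumours and 1 without the most alike pair. With Pgr the 2 calls became 0 without the 2 farthest tumours, 0 with the junction covariate, 0 among junction-high tumours and 1 without the pair. Among junction-high tumours the counts were 7 for junctions (21 in all tumours), 8 for basal epithelium (16), 1 for squamous epithelium (4), 10 for fibroblasts (20), 5 for endothelium (8), 0 for T cells (4) and 1 for skeletal muscle (0). The junction score as covariate left 8 for basal epithelium, 10 for fibroblasts, 3 for endothelium and 0 for T cells. Without the 2 farthest tumours the counts were 1 for squamous epithelium, 5 for endothelium, 2 for T cells and 0 for adipocytes (1 in all tumours). The settings added after seeing the data gave, without the alike pair, 1 for squamous epithelium, 5 for endothelium, 1 for T cells and 1 for skeletal muscle, and, without tumours of high fat or muscle score, 8 for T cells and 0 for adipocytes. No filter gave 2 for adipocytes. The slope of Lgr6 on T cells turned from -1.82 to 0.013 with the junction covariate and to 0.18 among junction-high tumours. Settings that leave out tumours rest on fewer of them. The cause of the other changes was not tested.

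Leaving out each tumour in turn gave 1 to 8 calls with Axin2, 1 to 3 with Pgr (1 without 10 cGy replicate 6), 18 to 21 with junctions, 13 to 17 with basal epithelium, 1 to 5 with squamous epithelium, 16 to 22 with fibroblasts, 3 to 10 with endothelium (3 without 10 cGy replicate 1), 1 to 7 with T cells, 1 to 2 with adipocytes and 0 to 0 with skeletal muscle. For T cells the count was 1 without 80 cGy replicate 3, 30 cGy replicate 4, 10 cGy replicate 1 or sham replicate 13, 2 without 80 cGy replicate 5, 30 cGy replicate 2, 10 cGy replicate 3 or sham replicates 5, 6, 16, 17 or 18, and 7 without sham replicate 14. For adipocytes it was 2 without sham replicate 7.

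Limits: sample descriptions share a code in 8 cases of 2 tumours, whose meaning is not stated (correlation as a random block 0.241). The slope fits were not run with these codes as a block. Arrays were also cut into 2 sets (26 and 19) along the main axis of variation in probe sets without a gene symbol. That axis held 11.1% of the variance, and such a cut always gives 2 sets. The smaller set held 9 of 18 sham tumours and 3, 5 and 2 dose tumours. Neither the shared codes as a random block nor these sets as a covariate called a member between hosts.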

Other observations

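Further pathway genes also moved with the epithelial junction score: of 54 kept, 20 rose and 3 fell (42.6%, against 36.1% of all genes). The genes named here were chosen after their values were seen. The cadherin-like planar polarity genes Celsr2 and Celsr1 rose by 0.84 ± 0.06 and 0.74 ± 0.08 per unit of score (limma adjusted p = 1.46e-15 and 1.2e-09), the Frizzled-removing ligase gene Rnf43 by 0.77 ± 0.07 (1.52e-12), the receptor gene Lgr4 by 0.63 ± 0.06 (1.29e-10) and the Dishevelled-binding inhibitor gene Nkd2 by 0.96 ± 0.09 (2.2e-11). Within the junction-high tumours the slopes were 1.11 ± 0.16, 1.09 ± 0.24, 1.06 ± 0.19, 0.55 ± 0.17 and 1.14 ± 0.25, each with an adjusted p under 0.05. The carrier gene Wls, the matricellular gene Ccn4 and the inhibitor gene Apcdd1 fell, with slopes of -0.25 ± 0.05, -0.42 ± 0.11 and -0.30 ± 0.08.

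Among the further genes Sostdc1 and Porcn had the smallest p on the basal score, with slopes of 0.90 ± 0.07 (adjusted p = 3.1e-12) and 0.48 ± 0.06 (7.2e-07). In the junction-high tumours the slopes were 0.99 ± 0.10 (8.05e-09) and 0.54 ± 0.07 (1.74e-06).

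Some Wnt genes are neighbours in the mouse genome, and 4 such pairs were compared across the 36 junction-high tumours, a check chosen after seeing the data. Wnt6 and Wnt10a on chromosome 1 had Pearson r = 0.465 (permutation p = 0.00349, Benjamini-Hochberg 0.014 over 4 pairs) and Spearman rho = 0.557 (permutation p = 0.00056, adjusted 0.00224). Without the 2 tumours farthest from the Wnt6 median r was 0.525, and in the 9 junction-low tumours it was 0.183. The pairs Wnt3a with Wnt9a, Wnt9b with Wnt3 and Wnt10b with Wnt1 had r of 0.07, -0.20 and 0.05 (permutation p = 0.703, 0.241 and 0.763). Except for Wnt9a and Wnt10b, the genes of these 3 pairs lay below the table median in every tumour.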
